A study of Drosophila melanogaster with 6 samples.

Results

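The core RAS-MEK-ERK cascade was described by the maternal transcripts of its genes in unfertilized Drosophila melanogaster eggs. Members were 10 genes named in advance by symbol, and 9 of them (drk, Sos, csw, dos, Ras85D, Raf, ksr, Dsor1 and rl) were matched to a row of the 13943 features in the gene tables. The scaffold gene cnk, whose identifier in the name table matched no row, was not analysed here. Eggs came from mothers of the genotype MTD>MEK_F53S, which expressed the gain-of-function MEK F53S in the germline, or MTD>MEK, which expressed wild-type MEK in the same way, with 3 libraries of each. The submitters call the mutant a RASopathy allele, after the developmental disorders that arise from overactive RAS signalling. Both transgenes sat at one genomic site and were driven by MTD-GAL4, a set of GAL4 drivers active in the female germline through oogenesis. Mothers of both groups were mated to sterile males, and each library held a pool of eggs collected at 0 to 30 min. Each group is 1 fly line, so the transgene and other differences between the lines cannot be told apart for any gene.

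In this cascade an activated receptor tyrosine kinase recruits the adaptor Drk, which brings the exchange factor Sos to the membrane, where Sos loads the GTPase Ras85D with GTP. Active Ras85D engages the kinase Raf, Raf phosphorylates the MEK kinase Dsor1, and Dsor1 phosphorylates the ERK kinase encoded by rl (rolled). Ksr scaffolds Raf and Dsor1, while the phosphatase Csw and the docking protein Dos act between the receptor and RAS. In the early embryo the maternally supplied cascade transmits the signal of the receptor Torso at both poles, and in the ovary it acts under the EGF receptor in follicle cells.

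Libraries held 37224814 to 48485330 estimated counts with MEK F53S and 37342085 to 48756311 with wild-type MEK. The 12 maternal germline markers, led by CycB, were all tested and summed to 17900 to 19500 CPM with MEK F53S and 23800 to 24200 CPM with wild-type MEK, with 2 higher and 5 lower. Mitochondrially encoded genes took 4.14% to 5.24% of counts with MEK F53S and 7.84% to 10.1% with wild-type MEK. Structural eggshell and follicle cell markers summed to at most 0.416 CPM (counts scaled to library size, with TMM factors) in any MEK F53S library and at most 0.0881 CPM in any wild-type MEK library, and 10 of those 14 genes had no count in any library. The 7 fat body and yolk markers summed to 60.6 to 104 CPM with MEK F53S and 8.58 to 11 CPM with wild-type MEK, mostly from apolpp, and Yp1 and Yp2 had no count. The 4 blood cell markers summed to 12.1 to 14.9 CPM with MEK F53S and 1.90 to 6.58 CPM with wild-type MEK, from srp alone, and Hml, NimC1 and Pxn had no count. The part of these differences in any result was not tested. MEK F53S replicate 2 and wild-type MEK replicate 1 lay farthest from the other libraries of their groups: within-group pairs that held 1 of them differed with chi-square values of 120 to 163 per degree of freedom, against 29.6 and 46.4 in the remaining pairs. Results that turn on these libraries are given with and without them.

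Of the 9 members, 1 was higher and 1 lower in MEK F53S eggs. The docking gene dos rose, the ERK gene rl fell, and the other 7 did not pass the test. Over all 7539 genes tested, 25.2% were called, 12.3% higher and 12.9% lower, so the members' share of 22.2% lay near the background. The median log2 fold change was -0.09 over the members and 0.05 over all tested genes. The groups did not overlap in CPM for 4 of the 9 members (dos, rl, Ras85D and drk), and for 42.3% of all tested genes. TMM factors split by group, at 1.05 to 1.092 with MEK F53S and 0.912 to 0.937 with wild-type MEK. They lowered CPM with MEK F53S relative to wild-type MEK. In estimated counts, scaled neither for depth nor by TMM, dos and rl stayed apart while Ras85D and drk overlapped. Without wild-type MEK replicate 1, 4 members were called, since Ras85D and drk also fell, and 33.8% of all tested genes were called. The count was again 4 when MEK F53S replicate 2 was left out as well, with 47% of all tested genes called.

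**Figure D1:**
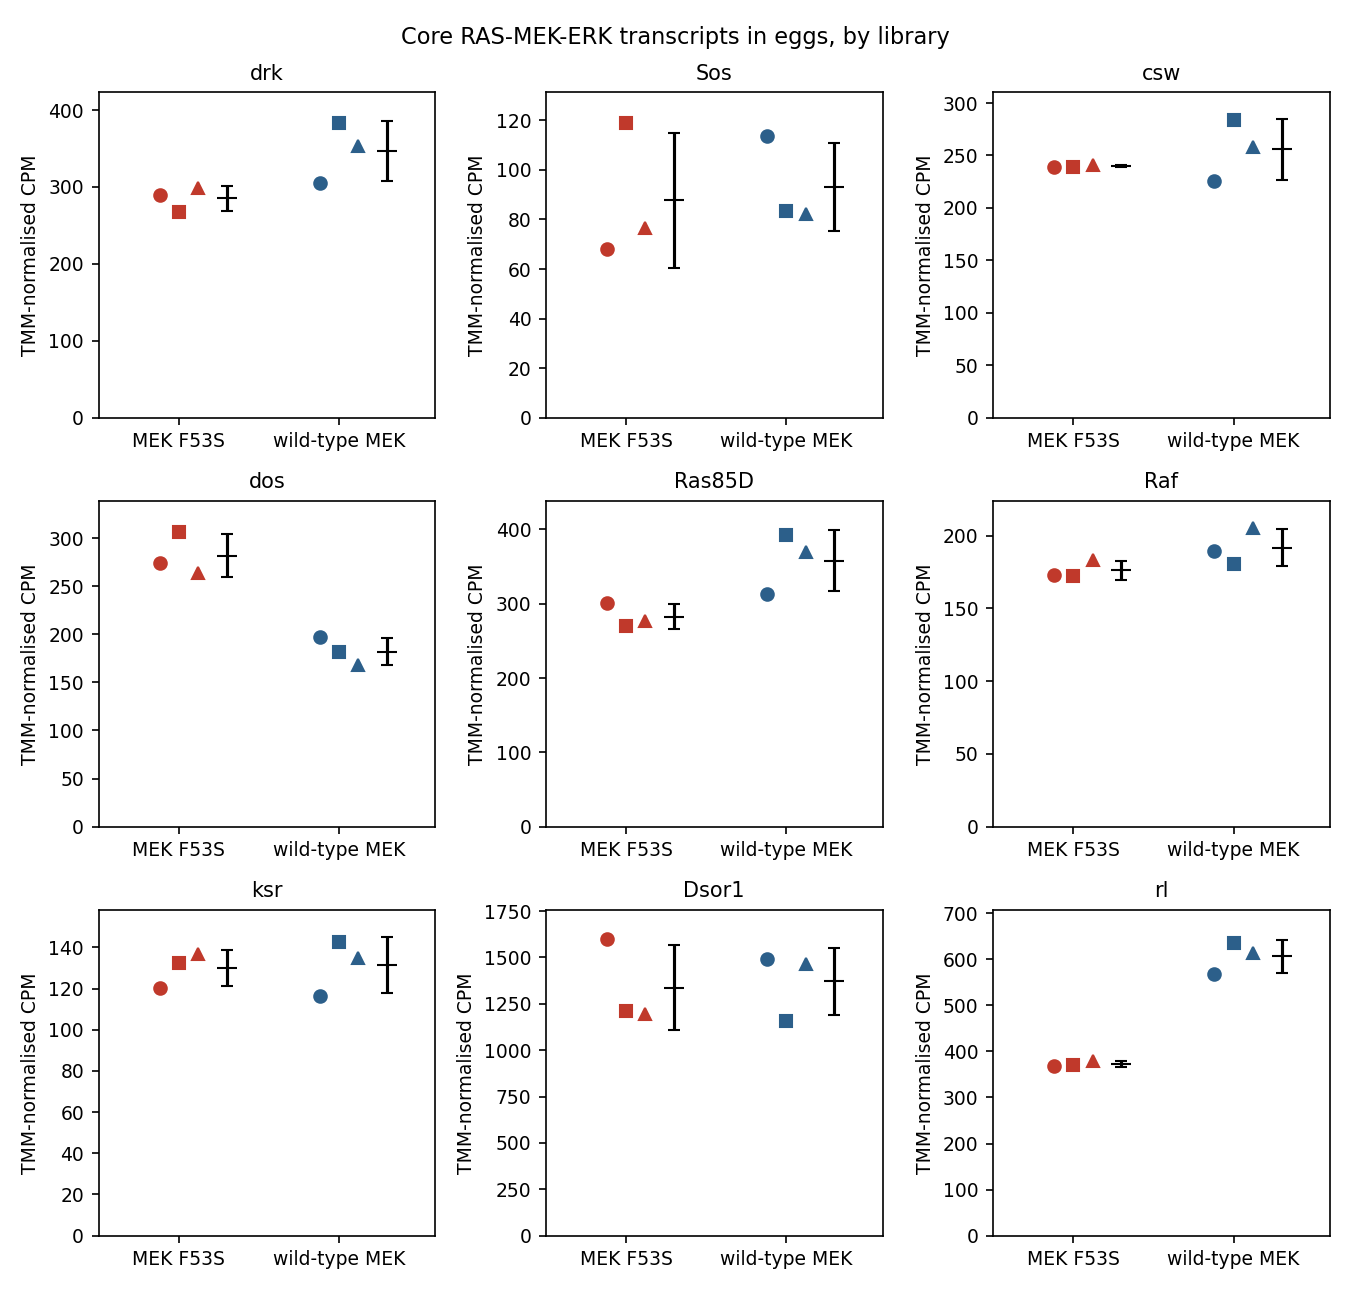
TMM-normalised CPM (vertical axes, from 0) of the 9 members in each library, with MEK F53S in red on the left and wild-type MEK in blue on the right; circles, squares and triangles are replicates 1, 2 and 3, and bars are the mean ± SD of 3 libraries. The groups stand clear of each other for rl and dos, while Dsor1 spreads over 1160 to 1601 CPM with both groups mixed.

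Dsor1, the fly MEK gene, lies on X, 9247342 to 9250037 in dm6. It had 1601, 1212 and 1196 CPM in MEK F53S libraries and 1489, 1160 and 1462 CPM in wild-type MEK libraries. The groups were mixed, with a high and a low library in each. Its log2 fold change was -0.04 ± 0.14 (SE), with an adjusted p of 0.88, and the 95% interval of the fold change ran over 0.782 to 1.22. A larger rise or fall of Dsor1 between the groups thus lay outside that interval, and a smaller one was not detectable here.

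The abundance of Dsor1 set it apart from the rest of the cascade. Between 39509 and 68018 estimated counts fell on it per library, and its rank by TPM (a transcript level per length, scaled to a fixed total) was 35, 39 and 52 of 13943 features in MEK F53S libraries and 29, 49 and 42 in wild-type MEK libraries. No library without a transgene was analysed here, so the share of these reads that came from a transgene is unknown. The sources used here do not give the species of the transgene's coding sequence, and a transgene counts only as far as its sequence matches Dsor1. Dsor1 therefore does not check the label of any library.

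The 10 nearest tested genes around Dsor1, within 30.5 kb, held 0 higher and 1 lower call in edgeR. At an unadjusted p under 0.05, 0 were higher and 3 lower, a threshold for which the share over all genes is not given here. DESeq2 called 0 higher and 2 lower, and limma on TPM 1 higher and 1 lower. Over all tested genes, DESeq2 called 31.3% and limma on TPM 21.5%. Among 2390 other tested genes whose mean reached 100 CPM, the 3 whose log2(CPM + 1) followed that of Dsor1 most closely over the 6 libraries were meigo (Pearson r = 0.966), Tudor-SN (r = 0.924) and Nup93-2 (r = 0.893). meigo was the single gene with r above 0.95. Their log2 fold changes lay between -0.06 and 0.02, with edgeR adjusted p-values of 0.785 to 0.972.

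The ERK gene rl fell in MEK F53S eggs. It lies near the centromere of arm 2R, at 1071462 to 1125927 in dm6, and encodes the fly ERK. It had 368, 370.3 and 379.5 CPM in MEK F53S libraries and 567.5, 636 and 614 CPM in wild-type MEK libraries. All MEK F53S libraries were lower than every wild-type MEK library, and they lay close together, with a coefficient of variation of 1.62% against 5.75%. The log2 fold change was -0.70 ± 0.10 (SE, adjusted p = 0.00116, n = 3 per group), a level lower by 38.5% with a 95% interval of the fold change of 0.529 to 0.715.

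The fall of rl passed the test in all 17 alternative fits, with log2 fold changes between -0.78 and -0.45. The smallest change came from TPM: rl had 179, 182 and 185 TPM in MEK F53S libraries and 255, 240.0 and 250.4 TPM in wild-type MEK libraries, a difference of -0.45 in limma on log2(TPM + 1) (adjusted p = 0.0113). In pooled eggs, less rl RNA in every egg and fewer eggs with rl RNA cannot be told apart. CPM and TPM are relative to the other RNA of a library, so neither gives an absolute amount per egg. Among the 10 nearest tested genes, which reached out to 965 kb in this sparse region, 2 were higher and 1 was lower, with a median log2 fold change of -0.03.

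The genes most like rl over the 6 libraries were fz (r = 0.998), exd (r = 0.998) and Hip1 (r = 0.997). fz encodes a Wnt and planar polarity receptor, and exd encodes a homeodomain partner of Hox proteins. Their log2 fold changes were -1.54, -0.65 and -0.53, each with an adjusted p under the threshold of 0.05. The likeness was not particular, since 308 of the 2390 genes had an r above 0.95 with rl, and with 2 separated groups of libraries r mostly records the group.

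dos (daughter of sevenless), on 3L at 2589414 to 2595590, encodes the Gab-type docking protein that Csw binds. It had 274, 307 and 264 CPM in MEK F53S libraries and 197, 181 and 168 CPM in wild-type MEK libraries. Every MEK F53S library was above every wild-type MEK library. The log2 fold change was 0.63 ± 0.12 (SE, adjusted p = 0.00451), or 1.55-fold with a 95% interval of 1.29 to 1.85.

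The rise of dos was also seen in TPM, at 167, 196 and 164 TPM with MEK F53S and 119, 98.1 and 91.2 TPM with wild-type MEK. It passed in all 17 alternative fits, with log2 fold changes between 0.56 and 0.78. Of its 10 nearest tested genes, 0 were called by edgeR, 1 was lower at an unadjusted p under 0.05, 1 was lower with DESeq2 and 1 was higher with limma on TPM. Their median log2 fold change was 0.01. Over all tested genes, DESeq2 called 31.3% and limma on TPM 21.5%.

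csw (corkscrew), on X at 2094234 to 2115701, encodes the SHP2-type phosphatase that works with Dos. In CPM it had 239, 239 and 241 in MEK F53S libraries and 226, 283 and 258 in wild-type MEK libraries. The MEK F53S libraries nearly coincided, within the wider range of the wild-type MEK libraries. The log2 fold change was -0.09 ± 0.12 (SE, adjusted p = 0.595), with a 95% interval of the fold change of 0.785 to 1.12. In TPM, however, the groups separated the other way, at 68.2, 68.9 and 69.3 with MEK F53S and 58.4, 62.8 and 61.0 with wild-type MEK. That difference did not pass in limma on log2(TPM + 1) (log2 0.18, adjusted p = 0.261). In edgeR with the implied effective length as offset, the log2 fold change was 0.06 (adjusted p = 0.739). That length, taken from reads and TPM, differed for csw itself by log2 0.01, against a median of 0.19 over tested genes. What part length and scaling had in the turn was not tested.

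drk, on 2R at 13495222 to 13502841, encodes the Grb2-type adaptor with SH2 and SH3 domains. It had 289, 268 and 299 CPM in MEK F53S libraries and 305, 382.5 and 353 CPM in wild-type MEK libraries. In this TMM-scaled CPM, each MEK F53S library was lower than every wild-type MEK library. The log2 fold change of -0.28 ± 0.12 (SE) did not pass (adjusted p = 0.107). In TPM the order turned, at 242, 197 and 248.5 with MEK F53S and 214, 179 and 192 with wild-type MEK, and the groups overlapped. The log2 difference was then 0.23 (adjusted p = 0.212 in limma). Without wild-type MEK replicate 1 the fall in counts passed (log2 fold change -0.40, adjusted p = 0.017). The exons of drk are shared over 19.6% of their length with mars on the other strand, and although the libraries are labelled directional, the sources used here do not give the strand setting of the quantification, so reads of the pair may not be fully separated.

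Sos, on 2L at 13813816 to 13819824, encodes the exchange factor for RAS and was the scarcest member. It had 67.9, 119 and 76.5 CPM in MEK F53S libraries and 113.5, 83.6 and 82.0 CPM in wild-type MEK libraries. A single library of each group was high, MEK F53S replicate 2 and wild-type MEK replicate 1, the same libraries that stood apart from their groups over all genes. The log2 fold change was -0.09 ± 0.22 (SE, adjusted p = 0.81), and its interval of 0.672 to 1.32 as a fold change was the widest of the members. Without MEK F53S replicate 2 it was -0.37, and the test still did not pass (adjusted p = 0.163).

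Ras85D, on 3R at 9510561 to 9513067, encodes the RAS protein of the cascade. It had 302, 270.2 and 276 CPM in MEK F53S libraries and 312, 392.4 and 369 CPM in wild-type MEK libraries. In this TMM-scaled CPM the MEK F53S libraries were all lower, and wild-type MEK replicate 1 lay close to them. The log2 fold change of -0.34 ± 0.12 (SE) just missed the threshold (adjusted p = 0.0603). It passed with DESeq2 (adjusted p = 0.0338) and without wild-type MEK replicate 1 (log2 fold change -0.46, adjusted p = 0.00872). In TPM the groups overlapped, at 171, 153 and 159 with MEK F53S and 161, 179 and 183 with wild-type MEK, and the log2 difference of -0.11 did not pass in limma (adjusted p = 0.43).

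Raf, on X at 2295466 to 2343870, encodes the kinase that RAS activates. It had 173, 172 and 183 CPM in MEK F53S libraries and 189, 180.2 and 205 CPM in wild-type MEK libraries. The ranges overlapped, since the highest MEK F53S library passed the lowest wild-type MEK library, and the log2 fold change of -0.12 ± 0.11 (SE) did not pass (adjusted p = 0.452, 95% interval of the fold change 0.775 to 1.09). Its sign was the same in all 17 alternatives, and 0 of them passed, DESeq2 included.

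ksr, on 3R at 5478390 to 5483906, encodes the kinase-like scaffold that holds Raf and MEK together. It had 120.2, 133 and 137 CPM in MEK F53S libraries and 116.5, 143 and 135 CPM in wild-type MEK libraries. The ranges covered each other almost entirely, and the log2 fold change was -0.02 ± 0.13 (SE, adjusted p = 0.936, 95% interval of the fold change 0.813 to 1.20). Its exons are shared over 15.2% of their length with Hcs on the other strand, the same limit as for drk.

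**Figure D2:**
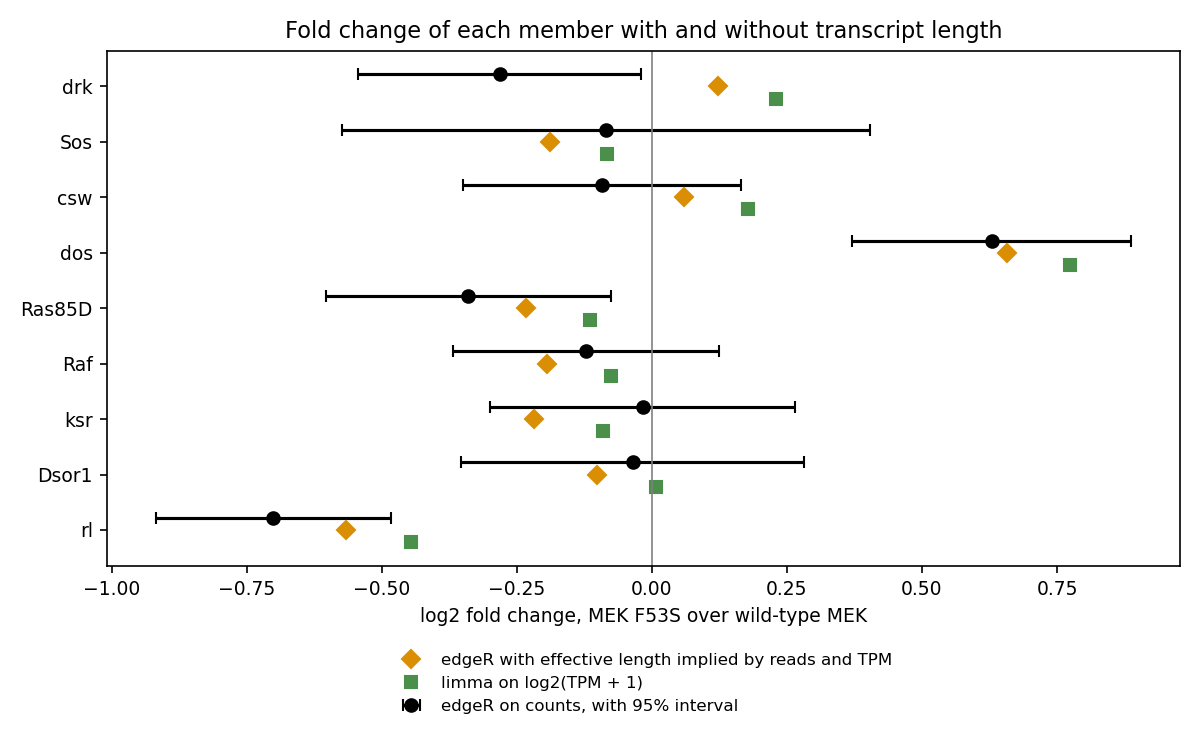
Log2 fold change (horizontal axis, MEK F53S over wild-type MEK) of each member in the edgeR test on counts with its 95% interval (black), in edgeR with the effective length implied by reads and TPM as an offset (orange), and in limma on log2(TPM + 1) (green). rl stays below 0 and dos above 0 in all of these. drk and csw are below 0 on counts and above 0 in both measures shown that use the effective length. In CPM per kilobase of transcript, not drawn here, their log2 differences are -0.14 and -0.09.

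Levels were compared between genes per transcript length. In TPM, Dsor1 led in both groups with 2780 ± 471 TPM in MEK F53S eggs and 2763 ± 424 TPM in wild-type MEK eggs (SD, n = 3 each), and no other member's range reached it. In wild-type MEK eggs, rl followed alone at 248.5 ± 7.69 TPM, then drk, Ras85D and ksr at 195, 174 and 172 TPM with ranges that overlapped in this order, then Raf at 126, dos at 103, csw at 60.7 and Sos at 32.6 TPM, each clear of the next. In MEK F53S eggs drk came after Dsor1 at 229 TPM and rl moved to the third place at 182 TPM. There rl, dos (176 TPM), ksr (162 TPM) and Ras85D (161 TPM) formed a chain of overlapping ranges, followed by Raf, csw and Sos. dos was in the seventh place by TPM with wild-type MEK and in the fourth place with MEK F53S.

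This order depended on how length was treated. TPM divides reads by an effective length from the authors' Salmon model, and over the 6 libraries that length averaged 2.35 times the transcript length for rl, 1.82 times for drk and 1.64 times for Ras85D, but 0.549 times for Dsor1 and 0.389 times for ksr. CPM per kilobase of transcript divides by transcript length rather than effective length. That length still rests on Salmon's isoform assignments and the implied effective length, so the scale is not free of the model. On it, Dsor1 stood at 886 ± 152 in MEK F53S eggs and 910 ± 121 in wild-type MEK eggs (SD, n = 3 each). rl followed at 232 ± 3.68 with MEK F53S and 377 ± 20.0 with wild-type MEK. With MEK F53S, drk averaged 215.8 and its range met that of rl at 229.5, so rl was not clear of it there. On this scale ksr moved down to 37.8 CPM per kilobase with MEK F53S and 38.2 with wild-type MEK, below Raf, csw and dos in both groups. Dsor1 as the most abundant member and Sos as the least abundant held on both scales and in both groups.

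**Figure D3:**
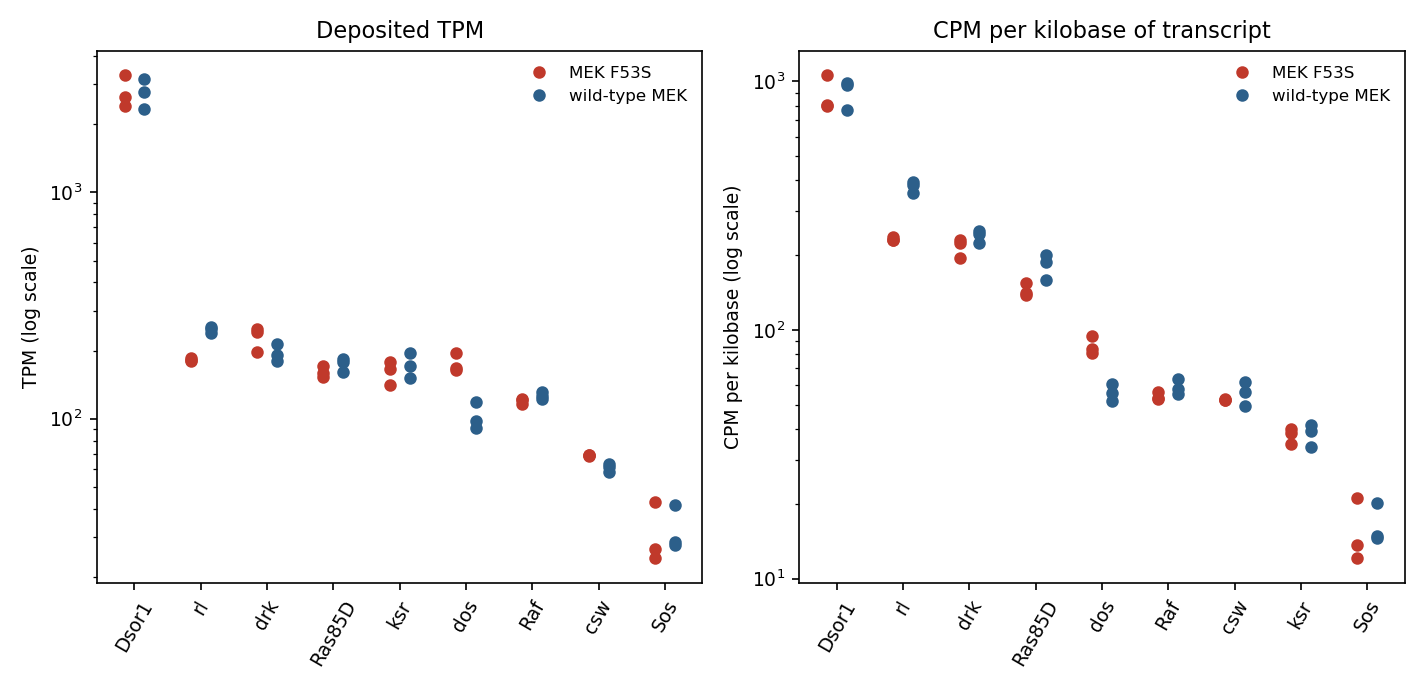
Level per length of each member in every library, as deposited TPM (left) and as CPM per kilobase of transcript (right), on log axes, with MEK F53S in red to the left of wild-type MEK in blue and genes ordered by their mean over all libraries. Dsor1 is the highest and Sos the lowest in both panels, and the gap between Dsor1 and rl is narrower on the right.

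Ratios between neighbours in the cascade were computed within each library, in TPM, for 5 pairs. With 3 libraries against 3, the exact permutation test, two-sided, cannot give a p below 0.1. Dsor1 over rl was 18.4, 14.5 and 13 in MEK F53S libraries and 12.5, 9.70 and 11.1 in wild-type MEK libraries. All MEK F53S ratios were higher (log2 difference 0.46, exact p = 0.1), and in CPM per kilobase the same ratio averaged 3.83 ± 0.696 with MEK F53S and 2.43 ± 0.428 with wild-type MEK (SD, n = 3 each), again without overlap. The size of this ratio thus depended on the scale, whereas the direction between groups was the same on both. In TPM, Dsor1 differed by log2 0.01 and rl by -0.45, so the difference in ratio restates the fall of rl. Since the transgene's share of Dsor1 reads is unknown, neither scale gives the number of MEK transcripts for each ERK transcript.

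csw over dos was 0.409, 0.352 and 0.422 in MEK F53S libraries and 0.493, 0.641 and 0.669 in wild-type MEK libraries. All MEK F53S ratios were lower (log2 difference -0.60, exact p = 0.1). In TPM, csw differed by log2 0.18 and dos by 0.78, so this mainly restates the rise of dos. The other 3 ratios overlapped between groups. Raf over Dsor1 averaged 0.0441 ± 0.00802 with MEK F53S and 0.0464 ± 0.00638 with wild-type MEK (SD, n = 3 each), and ksr over Dsor1 averaged 0.0598 ± 0.015 and 0.0642 ± 0.0184 in the same order (exact p = 0.6 and 0.8). drk over Sos, at 8.01 ± 2.97 with MEK F53S and 6.13 ± 0.923 with wild-type MEK, followed the libraries with high Sos (exact p = 0.5).

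**Figure D4:**
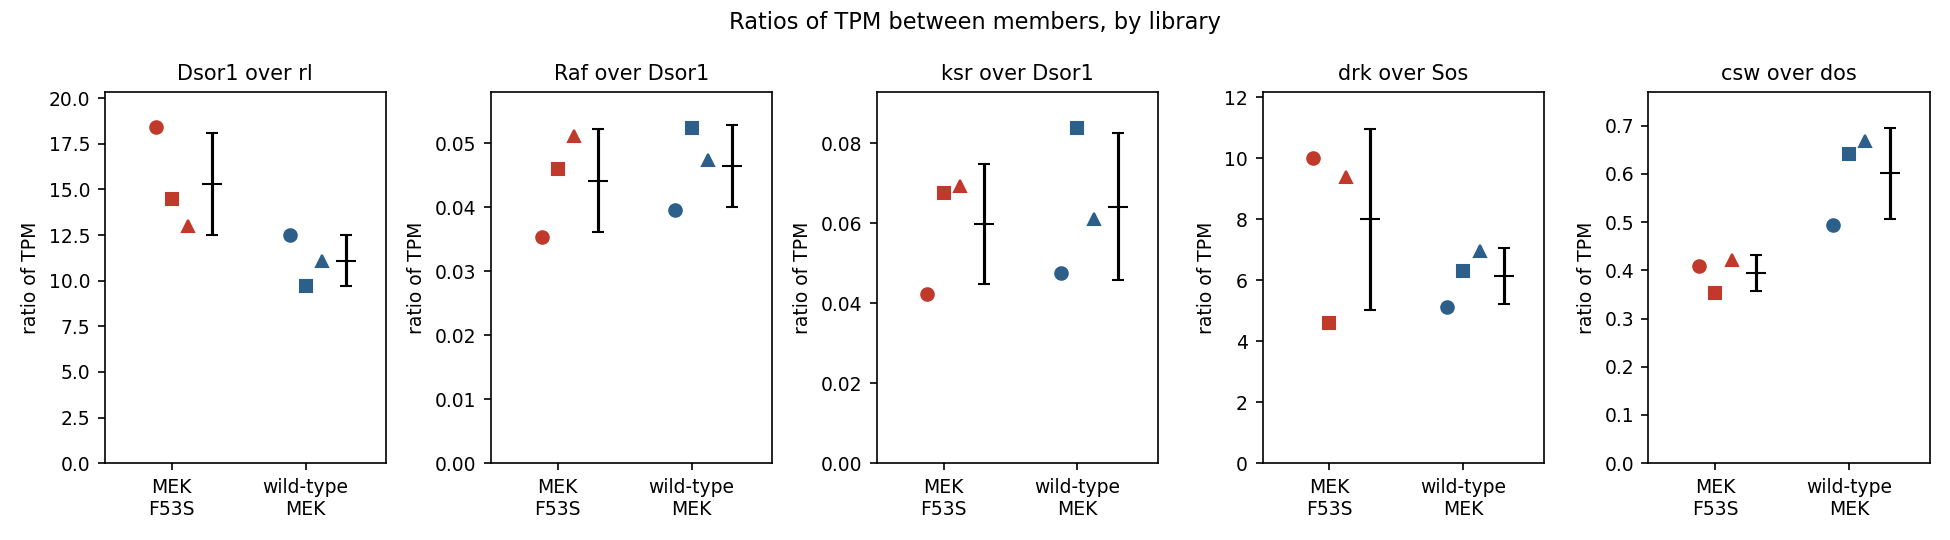
Ratio of TPM between 5 pairs of members in each library (vertical axes, from 0), MEK F53S in red on the left and wild-type MEK in blue on the right, with the mean ± SD of 3 libraries in black; circles, squares and triangles are replicates 1, 2 and 3. Dsor1 over rl is higher and csw over dos lower in every MEK F53S library, while the other pairs overlap.

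Transcript length per gene is a readout that the choice of members did not use, since Salmon weights it by the isoforms to which reads were assigned. For genes with several annotated transcripts the deposited effective length did not match the deposited reads and TPM: they agreed within 5% for at least 99.8% of genes with a single annotated transcript, but for at most 12.6% of genes with several. The deposited effective length was 0.150 of the implied one for rl and 0.235 for drk. The effective length implied by reads and TPM was therefore used here, as a choice made after the data were seen. Transcript lengths rescaled in the same way fell within the annotated range for every member, for example 1597 to 1611 bases for rl over all libraries, whose annotated transcripts run over 1412 to 6472 bases.

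The isoform-weighted length differed little for most members. As a mean per gene, it cannot show a switch between transcripts of similar length. Sos and Ras85D have 1 annotated transcript each, so theirs could not differ. The isoform-weighted length of Dsor1 was 1507 to 1508 bases with MEK F53S and 1506 to 1507 bases with wild-type MEK, next to its shorter annotated transcript of 1503 bases, as against 1799 bases for the longer one. For drk it was 1297, 1372 and 1304 bases in MEK F53S libraries and 1366, 1532 and 1456 bases in wild-type MEK libraries. The drk transcripts were shorter on average with MEK F53S, but the ranges overlapped (log2 difference -0.13, exact p = 0.2).

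Over 7513 tested genes with a value, the log2 difference in implied effective length had a median of 0.19, so lengths modelled for MEK F53S libraries were longer in general. The members spread around that median, with 0.35 for ksr, 0.25 for Sos, 0.23 for Raf and Dsor1, 0.12 for dos, 0.05 for Ras85D, 0.02 for rl, 0.01 for csw and -0.23 for drk. For drk, 1.04% of tested genes had a lower value, and for ksr, 92.2% had a lower one. TPM divides reads by these lengths, and the fold changes in TPM given above carry their differences.

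The other genes of RAS and ERK signalling moved in both directions. Of 76 genes on 9 lists ordered by role, 66 were tested, of which 12 rose and 9 fell, or 31.8% called against 25.2% of all tested genes. Their median log2 fold change was 0.05, equal to that of all tested genes. The split was 16 higher and 7 lower with upper-quartile factors, 13 and 4 in limma on TPM, and 15 and 5 with either length offset. With the libraries that stood apart left out, 18 rose and 16 fell of 67 tested, or 50.7% called against 47% of all tested genes. Without MEK F53S replicate 3, 9 rose and 4 fell of 66, or 19.7% against 13.1% of all tested genes.

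Upstream of the cascade, transcripts of ligands were the group with most rises. Of 6 tested ligand genes, 4 rose and 1 fell, or 83.3% called against 25.2% of all tested genes. DESeq2 called 4 higher and 1 lower, and limma on TPM 4 higher and 0 lower. Over all tested genes, DESeq2 called 31.3% and limma on TPM 21.5%. The list was chosen with earlier results of these data known, so its share is a description only. Krn, which encodes a TGF-alpha-like EGF receptor ligand, had 65.3 ± 5.41 CPM with MEK F53S and 36.3 ± 1.66 CPM with wild-type MEK (log2 fold change 0.85, adjusted p = 0.00226), and Pvf1, a ligand of the receptor Pvr, had 160 ± 21.1 CPM against 82.5 ± 15.8 CPM (0.95, adjusted p = 0.00372; SD, n = 3 each). spi and grk also rose, by 1.47 and 0.71 on the log2 scale. vn fell (-1.74), a call that was lost in each fit that used length (adjusted p = 0.222 with the implied length as offset).

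Of 7 tested receptor genes, Pvr, which encodes the PDGF and VEGF receptor relative of the fly, rose to 119 ± 15 CPM with MEK F53S, against 1.23 ± 0.118 CPM with wild-type MEK (log2 fold change 6.59, SD, n = 3 each), and 6 did not pass. That was 14.3% called, against 25.2% of all tested genes. DESeq2 called 2 receptors higher and limma on TPM 1 higher, with 0 lower in each, against 31.3% and 21.5% of all tested genes called. Among those that did not pass in edgeR, InR lay at the threshold (log2 fold change 0.49, adjusted p = 0.05). There tor, the receptor of the embryonic poles, had 208 ± 5.69 CPM with MEK F53S and 244 ± 25.8 CPM with wild-type MEK (adjusted p = 0.18). Egfr stood at 0.708 ± 0.22 and 0.828 ± 0.749 CPM in the same order, near the limit of detection.

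Next to drk, Sos, csw and dos, 2 of 7 other adaptor and exchange factor genes fell and 0 rose in edgeR. DESeq2 called 2 lower, limma on TPM called 1 lower, and 3 were lower at an unadjusted p under 0.05, with 0 higher in each. Over all tested genes, DESeq2 called 31.3% and limma on TPM 21.5%, and the share at that unadjusted p is not given here. chico, the insulin receptor substrate of the fly, had 81.7 ± 6.58 CPM with MEK F53S and 129 ± 9.43 CPM with wild-type MEK (log2 fold change -0.66, adjusted p = 0.00514). Crk, an SH2 and SH3 adaptor, fell by 0.505 (adjusted p = 0.0459), but the call was lost in 5 of 6 fits that left out 1 library, the exception being wild-type MEK replicate 1, with upper-quartile factors and in every fit that used length. Of 6 RAS-family GTPases, Rheb, the activator of TOR, rose (0.75, adjusted p = 0.0293) and Ric fell (-0.52, adjusted p = 0.0151). That was 33.3% called by edgeR, against 25.2% of all tested genes. The call of Rheb was lost without MEK F53S replicate 1 or 3 or wild-type MEK replicate 2 or 3 and with the deposited effective length as offset. The call of Ric was lost without MEK F53S replicate 1 or 3 and in every fit that used length. Rap1 and Ras64B did not pass (log2 fold changes 0.041 and -0.145).

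Of the 7 other scaffold and chaperone genes for Raf and MEK, 0 were called by edgeR, while 1 was higher and 2 were lower at an unadjusted p under 0.05. DESeq2 called 0 of them, against 31.3% of all tested genes, and limma on TPM called 1 higher, against 21.5% of all tested genes called. Hsp83, the Hsp90 chaperone on which Raf depends, had 2340 ± 458 CPM with MEK F53S and 2240 ± 331 CPM with wild-type MEK, and Cdc37, its kinase cochaperone, had 61.4 ± 5.76 and 65.4 ± 12.5 CPM in the same order (SD, n = 3 each). The 14-3-3 genes, whose proteins bind phosphorylated Raf, had log2 fold changes of -0.025 for 14-3-3zeta and 0.45 for 14-3-3epsilon (adjusted p = 0.891 and 0.0811). Of 4 phosphatase 2A genes, the catalytic subunit gene mts fell (-0.50, adjusted p = 0.00497) and the scaffold and regulatory subunits Pp2A-29B, wdb and tws did not pass. That share of 25% lay near the 25.2% of all tested genes called by edgeR.

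Downstream and around ERK, 3 of 10 tested brakes rose and 3 fell, or 60% called against 25.2% of all tested genes. The log2 fold changes were 1.795 for the ERK phosphatase gene Mkp3, 3.25 for aos, which encodes an inhibitor of EGF receptor ligands, and 0.445 for RasGAP1, whose product turns RAS off. Nf1, another RAS GTPase activator gene, fell (-0.697), as did the ERK phosphatase gene PTP-ER (-0.472), calls lost without MEK F53S replicate 1 or 3. The RasGAP1 call was lost without MEK F53S replicate 3 or wild-type MEK replicate 2. vap fell by 0.377, a call lost in 4 of 6 fits that left out 1 library, with upper-quartile factors and in every fit that used length. Of 8 genes whose proteins act under ERK, pnt and kay rose (3.525 and 0.799), and the repressor genes aop and cic did not pass (-0.03 and 0.28). The 25% called there lay near the 25.2% of all tested genes.

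The kinase genes of the parallel p38, JNK and Nemo cascades gave a comparison for Dsor1, Raf and rl. Of 11 tested, wnd rose (log2 fold change 0.52, adjusted p = 0.0335) and nmo, which encodes the Nemo kinase, fell (-0.57, adjusted p = 0.00755), a call lost in limma on TPM. wnd encodes a MAP kinase kinase kinase of the JNK branch, and its call was lost in 5 of 6 fits that left out 1 library, the exception being wild-type MEK replicate 3, and with the implied length as offset. The MEK relatives lic, hep and Mkk4 did not pass (0.05, 0.24 and 0.24), nor did the ERK relatives p38a, p38b and bsk (0.01, 0.05 and 0.80, the last with an adjusted p of 0.052). Of the 11 genes, 18.2% were thus called, against 25.2% of all tested genes. By CPM, lic, hep and Mkk4 stood at 111, 221 and 83.0 with MEK F53S and at 107, 187 and 70.2 with wild-type MEK.

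**Figure D5:**
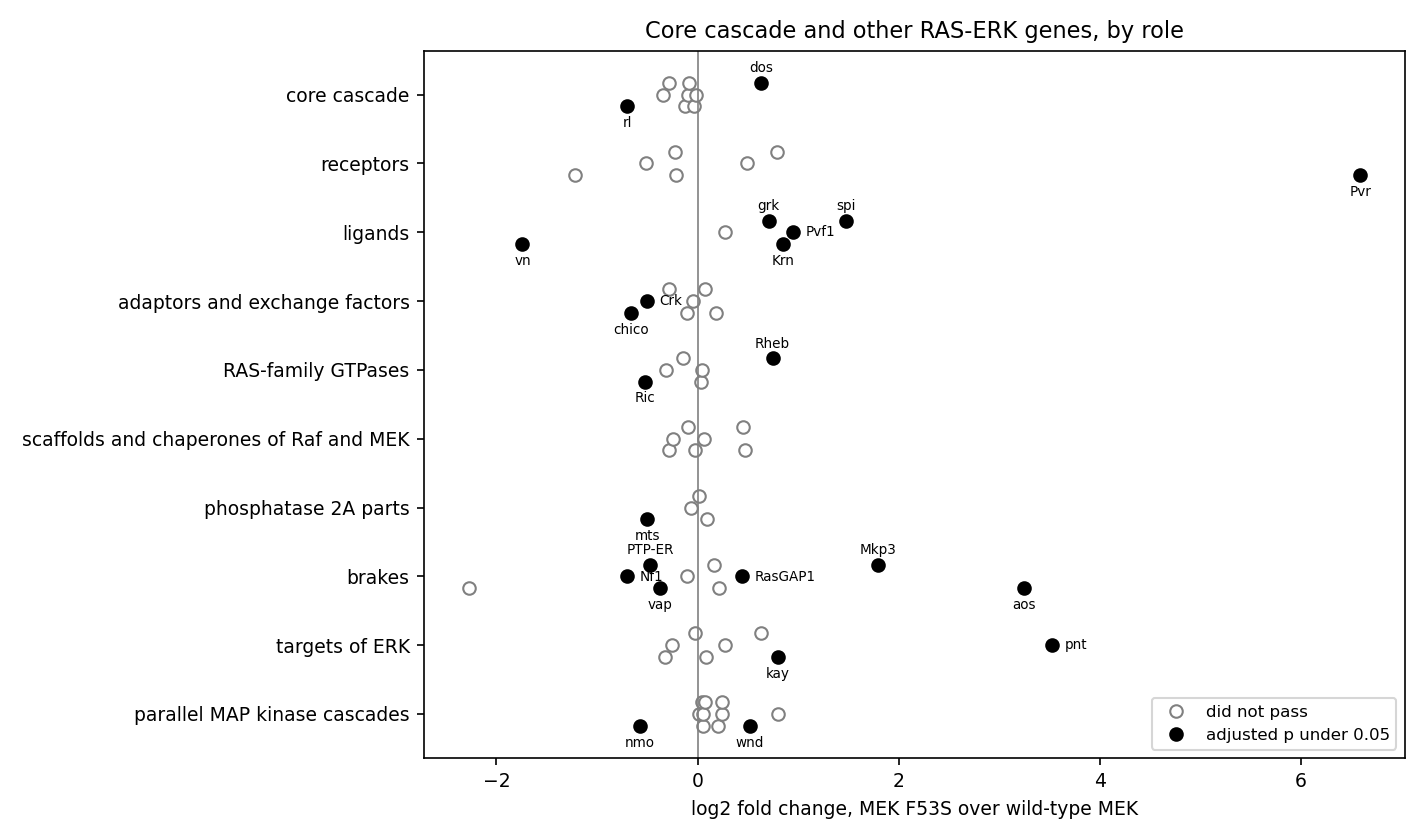
Log2 fold change (horizontal axis, MEK F53S over wild-type MEK) of the 9 core members and of the 66 other tested RAS-ERK genes, in rows by role; filled points passed an adjusted p of 0.05 in edgeR and are named, open points did not, and the vertical offset of points within a row carries no value. In the core cascade rl and dos are the filled points, at -0.70 and 0.63, while Pvr at 6.59 is the largest change of any gene shown.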

How the data were processed

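RNA-seq of 6 libraries was used. Per the submitters' processing notes, the authors used Salmon 0.8.2 and the dm6 build. The transcript annotation, strand setting and bias options were not given in the sources used here. As the columns show, per the file headers, the authors deposited estimated counts (not normalised) and TPM values for each gene and library, with a length and an effective length in bases. Gene symbols were matched for 13831 of 13943 features, and positions came from an Ensembl annotation in dm6 coordinates. No sequence was used.

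Estimated counts were rounded. Genes were filtered with filterByExpr of edgeR 4.0.16 (minimum count 10, minimum total 15), scaled by TMM and compared with the quasi-likelihood test in R 4.3.3, without covariates. Benjamini-Hochberg adjustment ran over all 7539 genes, with a threshold of 0.05 for a call. A positive log2 fold change means a higher level with MEK F53S than with wild-type MEK. SEs come from the quasi-likelihood F statistic, as do the 95% intervals. The test was tested on simulated data, where it recovered 67.2% of 2-fold changes and 4.32% of its calls were false. That simulation drew each gene independently and changed 198 of 7387 genes. It held no shift shared by a whole library, as seen here, so these rates may not carry over. Transcript lengths were rescaled by the effective length that reads and TPM imply, with 1 constant per library from genes with a single transcript and at least 10 counts. CPM per kilobase is CPM over that length.

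Libraries are called biological replicates by the submitters. P-values measure the spread between these libraries. All members were named, and of the pathway lists the called genes and those needed to read a member. The members and lists were chosen with earlier results of these data known. Alternatives were other scalings, no filter, DESeq2 1.42.0, limma 3.58.1 on log2(TPM + 1) and log2(TPM + 0.1), length offsets, a replicate block and leaving out libraries.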

Additional observations from a re-analysis of the deposited data

How the results depend on the processing

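The calls of rl and dos held in all 17 alternatives to the test, of which the implied length offset and the fit without both MEK F53S replicate 2 and wild-type MEK replicate 1 were added after seeing the data. Of the members not called, Dsor1 changed sign in 6 of the 17, drk and csw in 4 each, and Sos and ksr in 3 each. Values in some of the alternatives were as follows. For Dsor1 the log2 fold change was 0.017 with upper-quartile factors, 0.007 with limma at either pseudocount and 0.071 without those 2 libraries. For ksr it was 0.029 with upper-quartile factors, and without those 2 libraries it was -0.134. For csw it was 0.178 and 0.181 with limma on log2(TPM + 1) and log2(TPM + 0.1), 0.059 with the deposited effective length offset and 0.060 with the implied one. For drk the same 4 fits gave 0.229, 0.229, 0.248 and 0.123. Ras85D passed at -0.356 with DESeq2, and without the 2 libraries Ras85D and drk passed at -0.419 and -0.345.

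Leaving out 1 library at a time gave ranges of -0.401 to -0.232 for drk, -0.366 to 0.070 for Sos, -0.463 to -0.296 for Ras85D, -0.132 to 0.036 for ksr and -0.186 to 0.038 for Dsor1. Calls then numbered 2 to 4 among members, 13 to 24 among other pathway genes and 1001 to 2614 over all genes, against 2, 21 and 1900 with all libraries. Without the 2 libraries they numbered 4, 34 and 3554. limma on log2(TPM + 1) called 1049 higher and 572 lower, against 930 and 970 in edgeR, and its median over all genes was 0.115. With DESeq2, 3 members and 2359 genes were called.

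In CPM per kilobase the log2 difference of ksr over Dsor1 was 0.03 and that of drk over Sos -0.03, opposite in sign to TPM. Leaving out 1 library gave -0.20 to 0.07 for Raf over Dsor1 and -0.30 to 0.13 for ksr over Dsor1. Without mitochondrially encoded genes, mean TPM with MEK F53S and with wild-type MEK became 71.2 and 64.3 for csw, 124 and 134 for Raf and 188 and 263 for rl. The deposited length column gave log2 differences of 0.0 for Sos and Ras85D, -0.001 for dos, -0.005 for Dsor1 and -0.015 for rl, where effective lengths were longer with MEK F53S. Deposited effective lengths without 1 library ranged over -0.024 to 0.033 for csw and -0.029 to 0.034 for rl.

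Replicate numbers did not pair the libraries: deviations of same-numbered libraries correlated at -0.138, -0.135 and 0.193. With the replicate block, 1486 genes were called, 18 other pathway genes were called because Crk, vap and wnd no longer passed, and the members called were again rl (-0.700) and dos (0.629). The lowest count of any member in a library was 2759, for Sos.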
